A study of Homo sapiens with 12 samples.

Results

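Mitochondrial ribosomal proteins are encoded in the nucleus, made in the cytosol and imported into the organelle. There they join ribosomal RNA copied from mitochondrial DNA to form a small subunit, which reads the mRNA, and a large subunit, which joins the amino acids. These ribosomes make the few membrane proteins of the respiratory chain that mitochondrial DNA encodes, and inherited defects in their proteins cause diseases of energy metabolism. The members described here are the protein-coding genes in GENCODE whose symbols are MRPL (large subunit) or MRPS (small subunit) followed by a number. The rule used no measured value. It gave 78 genes, 49 MRPL and 29 MRPS, of 19951 protein-coding genes in the annotation. Of these, 77 had a matched transcript and passed the filter on low counts in both comparisons. MRPL23 had none and was not analysed here.

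The cells were HEK293T, an easily transfected human embryonic kidney line, and the messenger RNA libraries were strand-specific. In the first experiment, the transfected siRNA either was a control (siControl) or targeted POLR3A (siPOLR3A), and cells were taken 2 days later. In the second, they were exposed to the vehicle DMSO at 0.1% or to 25 µM ML60218, an inhibitor of RNA polymerase III, and collected after 4 hours. Each of the 4 groups held 3 libraries, and the second experiment had no transfection. POLR3A encodes the catalytic subunit of RNA polymerase III, the enzyme that makes transfer RNAs and 5S ribosomal RNA, and the study asked how mRNAs respond when that enzyme is lost or blocked. The labels do not say whether replicates were separate cultures, so p-values measure only the spread between these libraries.

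The libraries held between 37008325 and 49479476 estimated reads, of which 91.0% to 91.6% were on matched transcripts. POLR3A itself went from 90.8 ± 3.56 CPM (SD, n = 3; CPM are read counts scaled to library size by the TMM method) in siControl to 17.6 ± 2.65 in siPOLR3A, a log2 fold change of −2.36 (edgeR adjusted p 1.94e-05). The label calls the cells epithelial and the tissue kidney. Of 5 epithelial markers 4 averaged at least 1 TPM (transcript abundance corrected for length and scaled to a fixed total), of 6 kidney tubule markers 1 did, and of 4 neuronal-like genes known in this line 4 did. Among 5 blood markers, PTPRC and HBB were at 0 TPM. Transcripts of mitochondrial DNA took between 5.38% and 9.73% of the reads.

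The promoters are shown first because the members share sequence there that the choice of genes did not use. RefSeq windows on GRCh38.p14, from 250 bases before to 50 bases after the start, were matched for 69 of the 78 members by symbol. They were searched on both strands for CCGGAAG and GCGGAAG, bound by ETS factors such as GABP, for AAGATGGC, bound by YY1, and for the NRF1 motif. GABP and NRF1 are known regulators of nuclear genes for mitochondrial proteins. Capitals mark the matches, with a match on the other strand printed as it reads on the gene's strand. MRPL51, MRPL20, MRPL33 and MRPS17 are shown because they were among the largest falls with ML60218. MRPL46 and MRPL27 are shown because they share a start region with a divergent neighbour described further on, and they were chosen after their values were seen.
MRPL51, chr12:6493213-6493512, minus strand: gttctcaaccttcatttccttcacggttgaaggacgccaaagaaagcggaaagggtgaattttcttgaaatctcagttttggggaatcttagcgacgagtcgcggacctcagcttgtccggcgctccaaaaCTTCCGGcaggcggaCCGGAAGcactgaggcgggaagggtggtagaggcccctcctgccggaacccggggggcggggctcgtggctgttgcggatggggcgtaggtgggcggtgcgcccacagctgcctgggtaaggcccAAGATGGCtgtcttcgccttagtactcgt
MRPL20, chr1:1407244-1407543, minus strand: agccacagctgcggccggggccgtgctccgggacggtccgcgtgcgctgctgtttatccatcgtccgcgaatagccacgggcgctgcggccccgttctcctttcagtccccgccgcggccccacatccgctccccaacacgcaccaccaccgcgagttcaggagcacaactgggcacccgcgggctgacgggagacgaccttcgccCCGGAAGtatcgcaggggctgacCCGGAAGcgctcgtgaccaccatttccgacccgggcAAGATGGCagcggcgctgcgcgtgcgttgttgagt
MRPL33, chr2:27771469-27771768, plus strand: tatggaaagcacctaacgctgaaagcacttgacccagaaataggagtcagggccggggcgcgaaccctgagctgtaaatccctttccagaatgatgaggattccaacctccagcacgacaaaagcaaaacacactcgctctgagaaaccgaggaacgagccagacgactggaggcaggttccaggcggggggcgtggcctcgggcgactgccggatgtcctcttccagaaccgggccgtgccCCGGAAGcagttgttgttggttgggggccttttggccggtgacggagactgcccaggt
MRPS17, chr7:55951627-55951926, plus strand: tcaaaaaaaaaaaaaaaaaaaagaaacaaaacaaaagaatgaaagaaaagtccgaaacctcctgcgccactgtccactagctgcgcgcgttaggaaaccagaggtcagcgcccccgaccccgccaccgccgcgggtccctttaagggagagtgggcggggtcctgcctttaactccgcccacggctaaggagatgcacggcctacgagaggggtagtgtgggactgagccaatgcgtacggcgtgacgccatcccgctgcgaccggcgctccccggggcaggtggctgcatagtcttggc
MRPL46, chr15:88467339-88467638, minus strand: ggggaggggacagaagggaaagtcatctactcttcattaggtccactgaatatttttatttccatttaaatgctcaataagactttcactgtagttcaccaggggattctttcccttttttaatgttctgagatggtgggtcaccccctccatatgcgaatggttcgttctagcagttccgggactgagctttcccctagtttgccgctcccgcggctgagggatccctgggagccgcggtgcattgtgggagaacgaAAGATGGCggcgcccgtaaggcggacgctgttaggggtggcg
MRPL27, chr17:50373135-50373434, minus strand: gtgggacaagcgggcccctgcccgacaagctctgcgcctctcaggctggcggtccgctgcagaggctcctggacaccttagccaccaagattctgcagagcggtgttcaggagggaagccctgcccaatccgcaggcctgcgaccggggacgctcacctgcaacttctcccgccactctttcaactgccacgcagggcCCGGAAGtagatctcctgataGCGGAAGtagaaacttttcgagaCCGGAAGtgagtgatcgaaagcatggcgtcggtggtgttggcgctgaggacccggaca

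A gene was counted as holding a motif when any of its windows did, since 11 of the 69 members had several start sites and 85 windows in all. CCGGAAG was found in 30 of the 69 members (43.5%), against 16.5% of all 15843 protein-coding genes in the table. The YY1 motif was found in 21 members (30.4%) against 4.66%, at 22 distinct sites, of which 17 lay within 50 bases of a start. GCGGAAG was found in 6 members (8.7%) against 11.5%, and the NRF1 motif in 1 (1.45%) against 1.99%. At least 1 of these motifs was present in 63.8% of members and in 28.9% of all genes. Counted by window, CCGGAAG was in 33 of 85 (38.8%) against 12.8% of all 22183 windows, and the YY1 motif in 23 (27.1%) against 3.53%. Of 68 cytosolic ribosomal proteins, 33.8% held CCGGAAG, 32.4% GCGGAAG and 10.3% the YY1 motif. At least 1 motif was present in 64.7% of them, close to the share of the members. Either ETS form was in 55.9% of them, against 44.9% of members. The large and small subunits had close shares, with a motif in 64.3% and 63% of genes. Of members called lower with ML60218, 65.1% held a motif, and of members not called 61.5%. For CCGGAAG these shares were 46.5% and 38.5%, and for the YY1 motif 25.6% and 38.5%. A match is a description of the letters and does not show that a factor binds there.

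**Figure D1:**
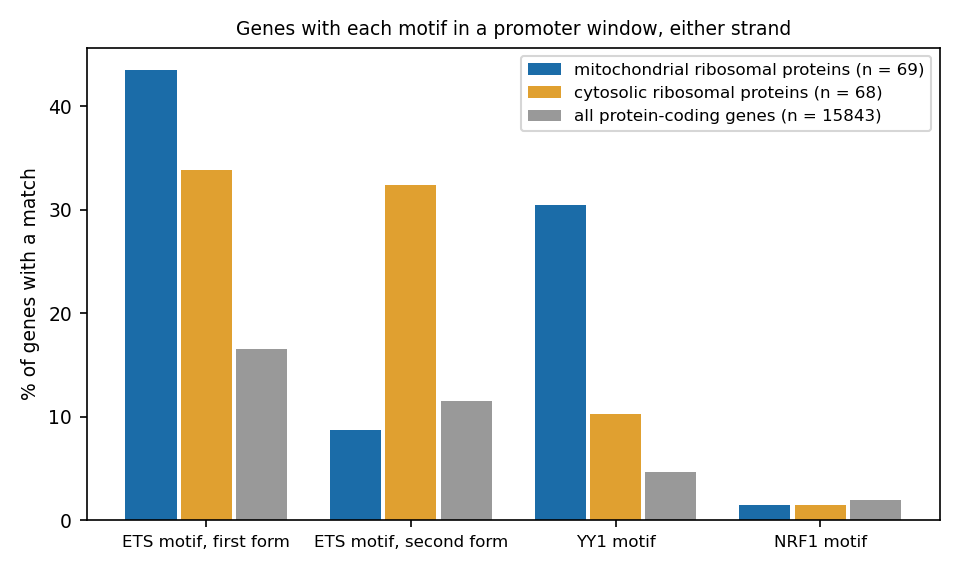
Share of genes (y axis, %) with each motif (x axis) on either strand of any of their promoter windows, for mitochondrial ribosomal proteins, cytosolic ribosomal proteins and all protein-coding genes of the RefSeq table; the first ETS form is CCGGAAG and the second GCGGAAG. The blue bar is the highest of the 3 for the first ETS form (43.5%) and for YY1 (30.4%).

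The members were expressed at similar, moderate levels. Averaged over the 12 libraries, their median was 67.3 TPM, and 76 of 77 stood at 10 TPM or more. The middle of the distribution was narrow, with quartiles of 48.1 and 88.4 TPM. The median over the 15404 genes tested after the siRNA was 13.2 TPM, and over 84 cytosolic ribosomal proteins it was 1550. Large subunit members had a median of 74.2 TPM and small subunit members 55.8.

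At the top stood MRPL51 at 216 TPM, MRPL33 at 203, MRPL3 at 201 and MRPL42 at 153. MRPL3 lies close to the peptidyl transferase centre, and MRPL51 and MRPL42 are found in mitochondrial but not bacterial ribosomes. At the bottom stood MRPL45 at 1.3 TPM, MRPS12 at 11.3, MRPS22 at 13.2 and MRPL57 at 14.0. MRPL45 holds the ribosome to the inner membrane and MRPS12 belongs to the decoding site. Some of these low values depend on which transcripts could be matched or told apart. Pseudogenes named after MRPL45 held 91.1% of the TPM of the gene and its copies together, and those of MRPS31 32.7%, so both genes are uncertain. Only 1 of 4 annotated transcripts of MRPS12 was matched. When unmatched transcripts were given the gene of their neighbours in the table, MRPS22 came to 66.9 TPM. The only annotated transcript of MRPL57 was matched, and its pseudogenes were at 0 TPM.

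Summed over the 77 members, TPM were 5356, 5096 and 5484 in siControl and 4952, 4863 and 4838 in siPOLR3A. The groups did not overlap, and the siRNA libraries were all lower. In DMSO the sums were 6634, 6567 and 6327, and with ML60218 they were 5901, 6335 and 6179. The ranges of DMSO and ML60218 overlapped on this scale, since replicate 2 of ML60218 lay above replicate 3 of DMSO. On the TMM scale the summed CPM did not overlap in that experiment, at 4989 ± 16.6 (SD, n = 3) in DMSO and 4437 ± 140 with ML60218. After the siRNA they went from 4276 ± 75.1 to 3848 ± 15.9. Neither sum was tested, since an exact permutation test of 3 libraries against 3 cannot give a two-sided p under 0.1. In bulk RNA, fewer cells of a kind and less of an RNA per cell cannot be told apart.

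The first comparison asked how the members differed 2 days after POLR3A depletion. With edgeR's quasi-likelihood test across all genes and a threshold of 0.05 on the Benjamini-Hochberg adjusted p, 39 members were lower, 8 were higher and 30 were not called. Among all 15404 genes tested, 29.2% were called lower, 27.4% higher and 56.6% in either direction. The members called in either direction, 47 of 77, were thus a share close to that of all genes, and what differed was the direction. Their median log2 fold change was −0.10, against 0.01 over all genes. With total counts in place of the TMM method, 33 were lower and 12 higher, and the medians were −0.05 and 0.05. Over all genes, calls then moved from 4222 higher and 4500 lower to 5010 and 3786. CPM were free of overlap between the groups for 54 of 77 members, against 63.4% of all genes. Most falls were small. The median among the 39 was −0.24, and 7 of them reached 0.5 on the log2 scale.

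MRPL19 (ENSG00000115364, GRCh38 chromosome 2, 75646783 to 75690851, plus strand), a large subunit protein with a bacterial counterpart, stood at 154, 153 and 156 CPM in siControl and at 70.3, 76.3 and 76.3 in siPOLR3A. Every depleted library was thus below every control by a wide margin, a difference of −1.06 ± 0.033 on the log2 scale (SE), with an adjusted p of 6.23e-12. MRPL20 (ENSG00000242485, chromosome 1, 1401908 to 1407313, minus strand), whose bacterial counterpart binds ribosomal RNA early in assembly, went from 64.4, 65.7 and 65.1 CPM to 35.7, 34.8 and 35.6, or −0.88 on the log2 scale (SE 0.032; adjusted p = 3.28e-11). MRPL41, a protein without a bacterial counterpart, went from 17.5, 17.4 and 19.5 CPM to 8.72, 9.87 and 10.1, a log2 fold change of −0.92. In none of these genes did the groups come close to overlapping.

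The next falls by size were in small subunit genes. MRPS9, whose bacterial counterpart reaches toward the transfer RNA in the P site, went from 69.4, 68.1 and 69.9 CPM to 44.9, 43.8 and 43.7, a log2 fold change of −0.65 (SE 0.031). MRPS6 went from 17.7, 18.7 and 18.0 CPM to 12.7, 12.4 and 12.0, a log2 fold change of −0.55 (SE 0.057). The replicates of each group again lay close together. MRPL45 had the largest fitted fall, −1.29 (SE 0.434, adjusted p 0.0382), but rested on 1.94, 1.42 and 1.37 CPM against 0.802, 0.892 and 0.204. It lost its call without any filter on low counts (adjusted p 0.088) and when siPOLR3A replicate 1 (adjusted p 0.0707) or siControl replicate 1, 2 or 3 was left out (adjusted p 0.118, 0.0858 and 0.0847), and it shares sequence with its pseudogenes.

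The rises were smaller than the falls, with the largest at 0.32. MRPS23 (ENSG00000181610, chromosome 17, 57834781 to 57850056, minus strand), a small subunit protein without a bacterial counterpart, stood at 46.2, 44.1 and 49.3 CPM in siControl and at 58.1, 57.5 and 58.8 in siPOLR3A, or 0.32 on the log2 scale (SE 0.040; adjusted p = 9.8e-06). MRPL1, of the mobile stalk beside the exit site for transfer RNA, went from 26.2, 29.2 and 28.5 CPM to 35.5, 33.6 and 33.7, a log2 fold change of 0.29 (SE 0.049). MRPL4, which lines the tunnel through which the new protein leaves, went from 40.6, 39.7 and 41.7 CPM to 48.9, 48.8 and 47.5, a log2 fold change of 0.25 (SE 0.035). In all 3 genes the depleted libraries were above every control. MRPS18A rose by 0.25, MRPL2 by 0.19 and MRPL54 by 0.18. The calls of MRPL4, MRPL2 and MRPL54 were lost when the trend of fold change with GC content and length was removed (adjusted p 0.0852, 0.0787 and 0.689), and 4 members were then called higher. MRPL54 was also lost with DESeq2 (adjusted p 0.128), with the length offset, and without siControl replicate 1 or 2 or siPOLR3A replicate 3 (adjusted p 0.0515, 0.121 and 0.116). Without siControl replicate 1 or siPOLR3A replicate 3, 5 members were called higher.

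**Figure D2:**
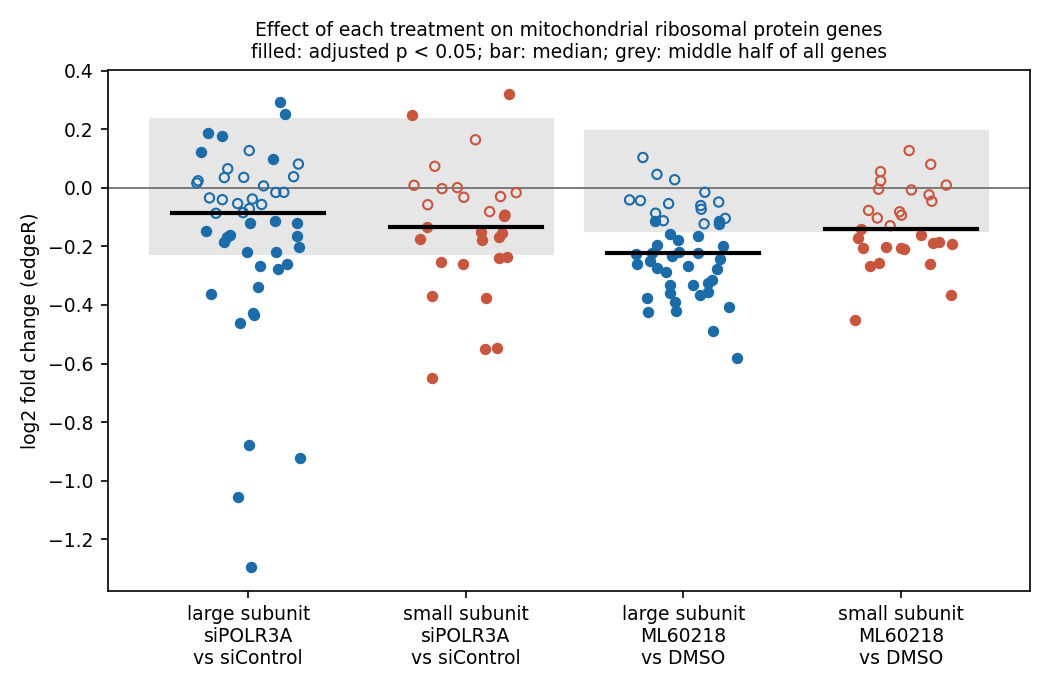
Log2 fold change (y axis) of each member by subunit and comparison (x axis); filled points have an adjusted p under 0.05, bars are medians and grey bands span the quartiles of all genes tested. With ML60218 the medians are −0.22 (large) and −0.14 (small), and no filled point lies above 0.

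As background, siRNAs can also lower transcripts that match only their seed in the 3′ untranslated region. The siRNA's own sequence is not in the sources used here. Copies of GAGGGA and GACGTA were counted in that region. These sequences of 6 bases were picked in an earlier examination of these data, after values were seen. Because of that choice, the shares called with and without them only describe these data and cannot serve as a test. GAGGGA was present in the 3′ untranslated regions of 11 of the 77 members, of which 9 were called lower and 0 higher. These were MRPL12, MRPL20, MRPL49, MRPS5, MRPS14, MRPS18B, MRPS25, MRPS27 and MRPS33, while MRPS7 and MRPS11 were not called. Of the 66 members without it, 30 were lower (45.5%) and 8 higher (12.1%). Over all 14188 genes scanned, 39% with the sequence and 27.2% without it were called lower. MRPL19, MRPL41, MRPS9, MRPS6 and MRPL45 held no copy there but at least 1 elsewhere in the transcript. MRPL33 (−0.46), MRPL16 (−0.43) and MRPL11 (−0.36), also called lower, held no copy in either part. Anywhere in the transcript, the sequence was in 31 members, of which 20 were lower (64.5%), while 19 of the other 46 were lower (41.3%). Over all genes scanned, these shares were 35.5% and 24%. GACGTA was in 0 of the 77 regions. Anywhere in the transcript it was in 4 members, of which 2 were higher (MRPS23 and MRPL54) and 0 lower. Of all genes scanned that held it anywhere, 40% were higher and 21.9% lower. With it in the 3′ untranslated region, 48.7% of all genes were higher and 17.7% lower, against 27.5% and 31.6% without it. The part of these matches in the falls and rises was not tested.

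At the transcript level, the falls of MRPL19 and MRPL20 were in their main coding transcripts. For MRPL20, ENST00000344843.12 went from 126 ± 2.88 to 53.3 ± 2.73 TPM (SD, n = 3), while its other coding transcripts stood at 6.07 ± 1.27 and 7.22 ± 0.413 in siControl and at 6.25 ± 0.29 and 7.83 ± 0.531 in siPOLR3A. For MRPL19, ENST00000409374.5 went from 28.3 ± 1.44 to 7.6 ± 2.15 TPM and ENST00000393909.7 from 24.3 ± 1.19 to 12.7 ± 0.77. MRPS5, a small subunit protein whose bacterial counterpart lies where the mRNA enters, showed a different split. Its coding transcript ENST00000272418.7 went from 5.87 ± 0.783 to 0.0346 ± 0.06 TPM, while its retained-intron transcript ENST00000461916.6 was at 11.6 ± 0.545 and 9.34 ± 0.803. Estimates for single transcripts rest on how the quantification divides shared reads, and 8 transcripts neighbouring those of MRPS5 were unmatched. Over all members, noncoding transcripts took 11.2% to 11.4% of member TPM in siControl and 12.4% to 12.9% in siPOLR3A. With DMSO they took 9.98% to 10.8% and with ML60218 10.6% to 11.3%, ranges that overlap.

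The second comparison asked how the members differed after 4 hours of ML60218. Here 49 of 77 were called lower, 0 higher and 28 were not called. At an adjusted p under 0.05, 20.9% of all 15461 genes were called lower, 18.1% higher and 39% in either direction. The median over the members was −0.19, against 0.01 over all genes, and 69 of 77 fold changes were below 0. CPM were free of overlap between the groups for 55 members, against 51.9% of all genes. The falls were shallow: the 49 ranged from −0.58 to −0.11 with a median of −0.25, and 1 of them reached 0.5. DESeq2 called 46 lower and 0 higher.

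The count depended on the scaling. With total counts in place of TMM, 33 members were lower, 2 higher, and the median was −0.12, while the median over all genes moved to 0.08. Over all genes, TMM gave 2800 higher and 3229 lower calls, total counts 3889 and 1919, and removal of the GC and length trend 2055 and 4004. With that trend removed, 57 members were lower and their median was −0.21, against −0.04 over all genes. Members had a median transcript length of 1120 bases, against 2540 over all genes, and a GC content of 49.1%, as over all genes.

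MRPL51 (ENSG00000111639, chromosome 12, 6491886 to 6493841, minus strand) changed most. It stood at 141, 141 and 143 CPM in DMSO and at 106, 97.9 and 79.8 with ML60218, or −0.58 on the log2 scale (SE 0.102; adjusted p = 0.00693). The treated libraries spread widely, with replicate 3 the lowest, yet all were below the controls. MRPL33 went from 56.6, 57.0 and 57.0 CPM to 42.6, 42.3 and 36.8, or −0.49 on the log2 scale (SE 0.057; adjusted p = 3e-04). MRPS17, a small subunit protein that binds ribosomal RNA, went from 51.2, 55.7 and 51.6 CPM to 39.6, 40.6 and 35.9, a log2 fold change of −0.45 (SE 0.057). In both genes the groups were well apart.

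MRPL36, among the smallest proteins of the large subunit, went from 30.5, 29.8 and 30.8 CPM to 23.6, 23.5 and 20.9, a log2 fold change of −0.42 (SE 0.058). MRPL43 went from 36.1, 33.8 and 36.1 CPM to 28.1, 25.6 and 25.5, a log2 fold change of −0.42 (SE 0.055). MRPL20 went from 79.7, 82.2 and 82.5 CPM to 67.6, 61.6 and 55.3, a log2 fold change of −0.41 (SE 0.065). None of these groups overlapped, and the lowest value in each of the 3 genes was in ML60218 replicate 3. On the TPM scale the falls were smaller: MRPL51 went from 264 ± 6.13 to 194 ± 18.4 TPM, MRPL33 from 262 ± 12.2 to 206 ± 8.59 and MRPL20 from 192 ± 4.93 to 161 ± 5.43 (SD, n = 3).

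The treated libraries differed among themselves. Against the mean of DMSO, the median member was at −0.17, −0.14 and −0.26 on the log2 scale in ML60218 replicates 1, 2 and 3, with 71, 64 and 69 of 77 members below that mean. The DMSO libraries were between −0.0073 and 0.0076. Without ML60218 replicate 3, 45 members were lower, 0 higher, and the median was −0.16. The siPOLR3A libraries, against the mean of siControl, were closer together, between −0.10 and −0.09, and the siControl libraries were between −0.03 and 0.03.

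**Figure D3:**
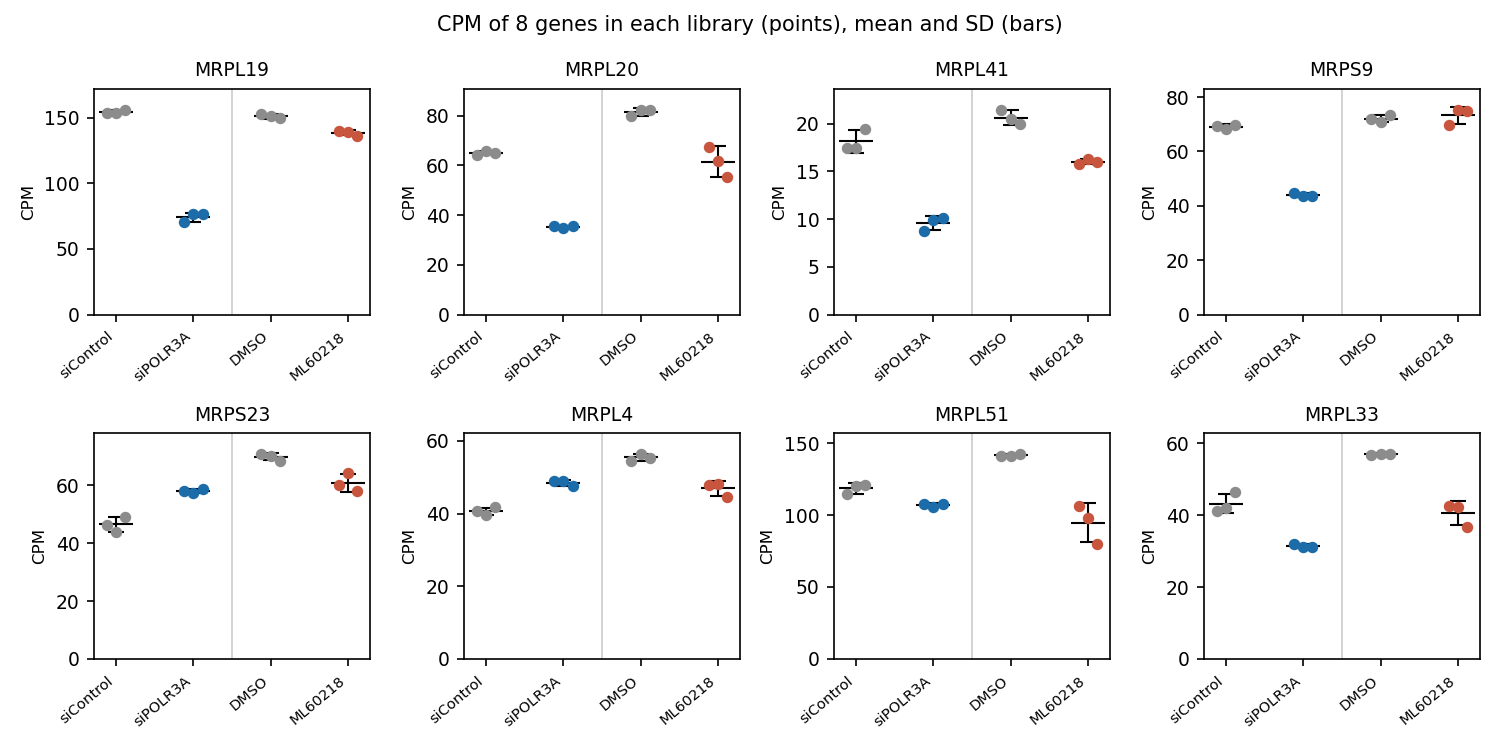
TMM-scaled CPM (y axis, from 0) of 8 members in each of the 3 libraries of the 4 groups (x axis); points are libraries, bars the mean and SD. MRPL19, MRPL20, MRPL33 and MRPL41 are below their controls in both experiments, with their lowest means in siPOLR3A; MRPS9 is lowest there too (44.1 CPM), and its DMSO and ML60218 libraries overlap.

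The counts of the subunits lay further apart with ML60218 than after the siRNA. With ML60218, 34 of 48 large subunit members (70.8%) and 15 of 29 small subunit members (51.7%) were called lower, with medians of −0.22 and −0.14. After the siRNA, 23 large subunit members (47.9%) were lower and 6 higher, and 16 small subunit members (55.2%) were lower and 2 higher, with medians of −0.09 and −0.13. With total counts, 25 large and 8 small subunit members were lower with ML60218. Without siControl replicate 1 or siPOLR3A replicate 3, 3 large subunit members were higher after the siRNA. The mean TPM per gene of the large subunit over that of the small was 1.37, 1.36 and 1.39 in DMSO and 1.31, 1.29 and 1.26 with ML60218, without overlap. In siControl it was 1.29, 1.31 and 1.31 and in siPOLR3A 1.28, 1.27 and 1.29, with overlap. A mean is weighted toward abundant genes. The median TPM of large subunit members was 86.3, 83.0 and 82.6 in DMSO and 76.5, 82.2 and 79.3 with ML60218. That of small subunit members was 63.4, 63.9 and 60.9 in DMSO and 59.6, 64.8 and 58.8 with ML60218. As a ratio of medians, large over small, DMSO and ML60218 overlapped. These counts and ratios describe the lists, and the difference between subunits was not tested.

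Symbols do not always give the subunit. MRPS30 and MRPS18A sit in the large subunit of the mitochondrial ribosome, and MRPS36 is now known as a part of the alpha-ketoglutarate dehydrogenase complex. With these moved or left out, 35 of 50 large and 13 of 26 small subunit members were lower with ML60218, and 24 and 15 were lower after the siRNA. MRPS30 was 75.8 ± 0.302 CPM in siControl and 70.9 ± 1.02 in siPOLR3A (log2 fold change −0.10, adjusted p 0.00905), and 82.8 ± 2.92 in DMSO and 87.5 ± 3.56 with ML60218 (0.08, adjusted p 0.17). The first call was lost with DESeq2 (adjusted p 0.0613), and also, at smaller values, after removal of the GC and length trend (−0.04, adjusted p 0.194), with total counts (−0.05, adjusted p 0.177) and with the length offset (−0.04, adjusted p 0.396). The second value passed with total counts (0.15, adjusted p 0.0351). MRPS36 was not called after the siRNA (−0.09) and was lower with ML60218 (−0.19, adjusted p 0.0108), a call lost without DMSO replicate 3 (adjusted p 0.056), with the length offset (adjusted p 0.0512) and with total counts (−0.12, adjusted p 0.0661).

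**Figure D4:**
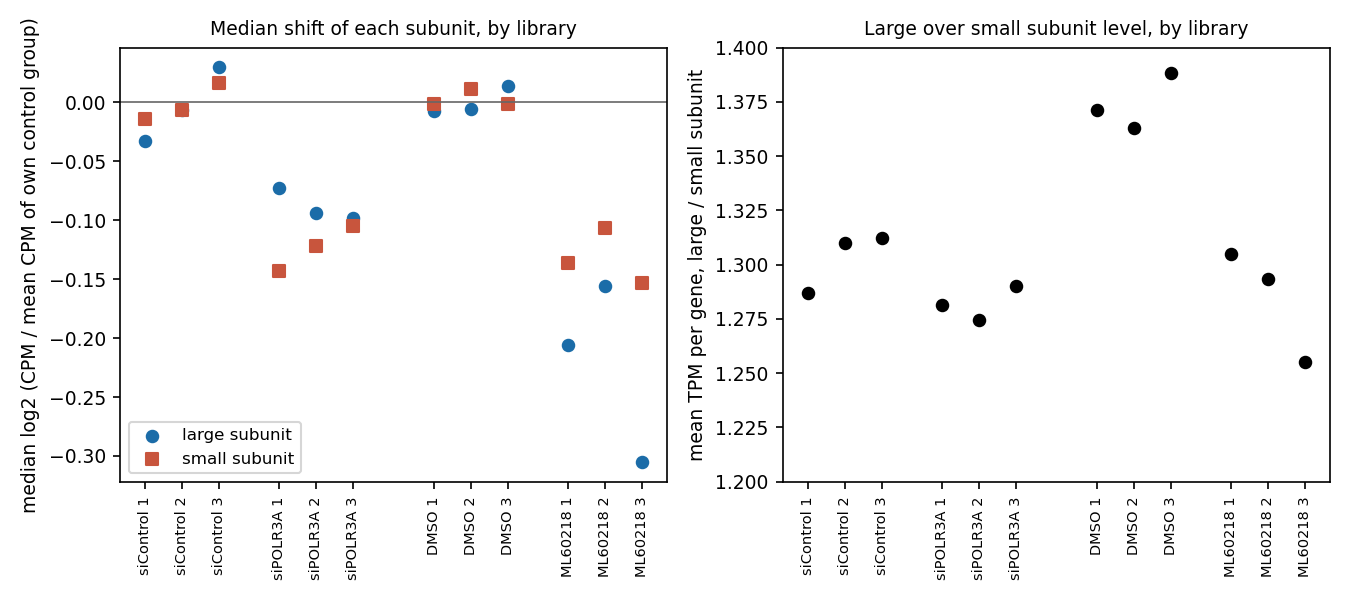
Left, median log2 ratio of each subunit's members to the mean CPM of their control group (y axis) in each of 12 libraries (x axis); right, mean TPM per gene of the large over the small subunit, on an axis that does not start at 0. The ratio lies between 1.36 and 1.39 in DMSO and between 1.26 and 1.31 with ML60218.

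The 3 paralogs of MRPS18, descended from a single bacterial protein, moved apart. After the siRNA MRPS18A was higher (0.25, adjusted p 1e-03), MRPS18B lower (−0.26, adjusted p 0.000333) and MRPS18C lower (−0.17, adjusted p 0.00146). With ML60218 MRPS18A (−0.16, adjusted p 0.0373) and MRPS18C (−0.19, adjusted p 0.0154) were lower, and MRPS18B was at −0.01 (adjusted p 0.924). The ML60218 call of MRPS18A was lost with DESeq2 (adjusted p 0.0925), with total counts (−0.09, adjusted p 0.245), with the length offset (adjusted p 0.0911), after removal of the GC and length trend (adjusted p 0.0771), and without any 1 of the DMSO libraries or ML60218 replicate 1 or 3 (adjusted p 0.0705 to 0.149). That of MRPS18C was lost without DMSO replicate 2 (adjusted p 0.0704) and with total counts (−0.12, adjusted p 0.0699), and the value was −0.30 with the length offset. After the siRNA, MRPS18C was at −0.10 after removal of the GC and length trend. MRPL12, a stalk protein also reported to bind the mitochondrial RNA polymerase, was lower in both, by −0.34 (adjusted p 5.3e-07; −0.53 after removal of the GC and length trend) and −0.22 (adjusted p 0.00303). MRPL58, a hydrolase that frees stalled ribosomes, was called in neither (0.01 and 0.03), and MRPS27, with RNA-binding helical repeats, was lower after the siRNA (−0.24) and at −0.02 with ML60218.

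The comparisons were then read side by side, each against its own controls. Lower in both were 23 of 77 members, against 7.52% of the 15165 genes tested in both, and 19 of these were large subunit and 4 small subunit members. Another 6 were higher in siPOLR3A but lower with ML60218, against 7.49% of all genes: MRPL4, MRPL17, MRPL27, MRPL54, MRPS18A and MRPS23. No member was higher in both (4.75% of all genes) or lower after the siRNA and higher with ML60218 (6.43%). Called lower with ML60218 and not called after the siRNA were 20, against 6.26%, and called in neither were 10, against 29.4%. Among the members lower in both, MRPL41 (−0.92 and −0.36), MRPL20 (−0.88 and −0.41) and MRPL19 (−1.06 and −0.13) had the largest summed change. The call of MRPL19 with ML60218 was lost with total counts (adjusted p 0.193) and without DMSO replicate 1 (adjusted p 0.0501). Across the 77 members the effects of the treatments had a Spearman correlation of −0.07, and across all genes −0.02. The genes share libraries and are not independent replicates.

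**Figure D5:**
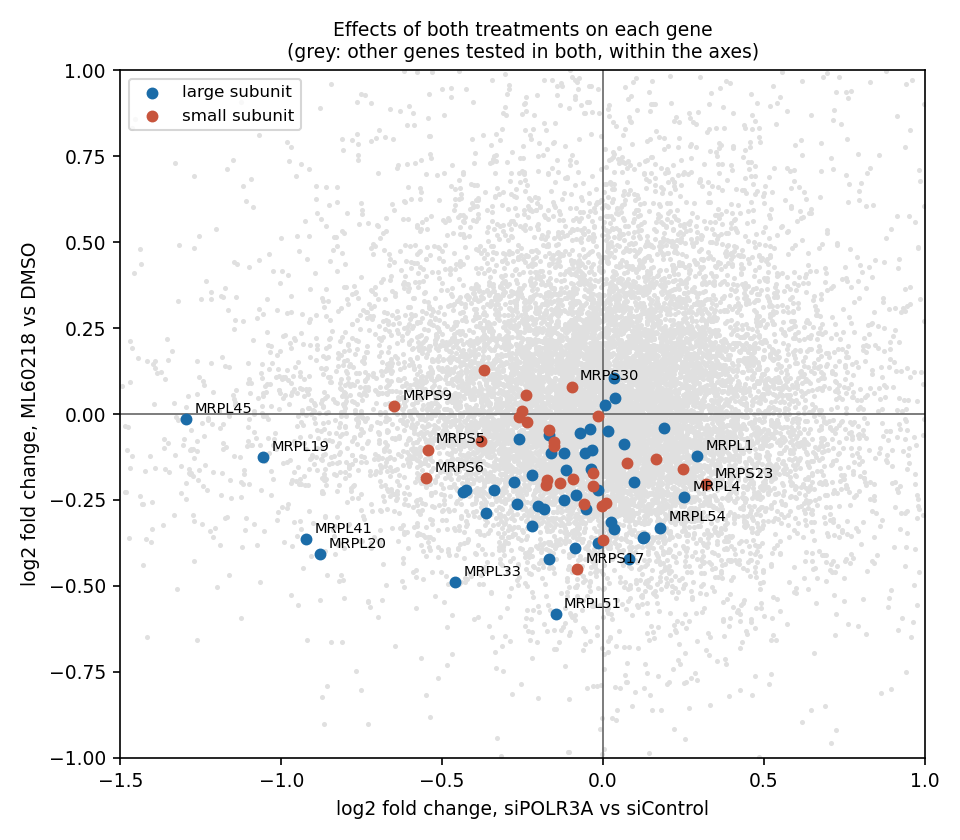
Log2 fold change after the siRNA (x axis) against that with ML60218 (y axis) for 77 members by subunit, with other genes in grey and selected members named. Most members lie below 0 on the y axis (69 of 77), while on the x axis they spread from −1.29 to 0.32.

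The difference between the effects, siRNA minus ML60218, was tested in a fit of all 12 libraries. It was called for 41 of 77 members, 26 positive and 15 negative. Of all 15780 genes 50.9% were called, 24.5% positive and 26.4% negative. The members called in either direction were thus a share close to that of all genes. On the positive side the smallest p-values were those of MRPL4 (0.50, SE 0.054, adjusted p 1.56e-06), MRPS23 (0.53, SE 0.063), MRPL43 (0.51, SE 0.071) and MRPL34 (0.49, SE 0.081). MRPL4 and MRPS23 were called in opposite directions, while MRPL43 and MRPL34 were lower with ML60218 and not called after the siRNA (0.08 and 0.13). On the negative side stood MRPL19 (−0.92, SE 0.046, adjusted p 2.7e-10), MRPS9 (−0.67, SE 0.051), MRPS5 (−0.44, SE 0.067) and MRPS14 (−0.30, SE 0.045). MRPS9 was at 72.1, 70.8 and 73.4 CPM in DMSO and 69.6, 75.4 and 74.8 with ML60218, so the groups overlapped there. With neighbouring transcripts included, the difference for MRPS5 was −0.69. After removal of the GC and length trend, the differences for MRPL4 and MRPS14 were 0.27 and −0.16. The difference for MRPS14 was not called with an offset for transcript length (−0.12, adjusted p 0.112).

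In GENCODE, 17 members start within 1000 bases of a gene on the opposite strand, and such divergent pairs often share a promoter. In 15 pairs the partner is no member. With ML60218, 11 of these 15 members were lower, while 2 partners were lower and 2 higher, with medians of −0.26 and 0.03. After the siRNA, 8 of the 15 members were lower, 6 partners were lower and 4 higher, and the medians were −0.16 and −0.05. Over all genes tested, 20.9% were lower and 18.1% higher with ML60218, and 29.2% and 27.4% after the siRNA. With 15 pairs, these counts only describe the pairs, and the contrast between members and partners was not tested. MRPL27, whose promoter is printed above, starts 6 bases from EME1, which encodes a DNA repair nuclease subunit. With ML60218 MRPL27 was lower (−0.36, adjusted p 0.00252) and EME1 higher (0.51, adjusted p 0.000751), and after the siRNA the signs were opposite (0.12 and −0.15). MRPL46 and MRPS11 start 34 bases apart, so that this pair holds a member of each subunit. MRPS11 was lower with ML60218 (−0.26, adjusted p 0.00392), and MRPL46 stood at 31.1, 32.3 and 32.1 CPM in DMSO and 32.5, 32.6 and 33.4 with ML60218 (0.05, adjusted p 0.441). In MRPL36 and NDUFS6, a respiratory complex I subunit, both genes were lower (−0.42 and −0.30). These pairs were picked after their values were seen, and their differences were not tested against each other.

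The other nuclear genes of mitochondrial translation were counted in the same way. For these and the lists that follow, the shares over all genes were 29.2% lower and 27.4% higher after the siRNA. With ML60218 they were 20.9% and 18.1%. Of 5 ribosomal proteins with other symbols, 3 were lower with ML60218, among them GADD45GIP1 (−0.37) and AURKAIP1 (−0.34), and 2 were lower after the siRNA. Of 32 assembly factors, 11 were lower and 2 higher with ML60218, and 6 lower and 11 higher after the siRNA. TRMT10C, of the enzyme that trims mitochondrial transfer RNAs, fell from 106 ± 0.427 to 72.1 ± 0.609 CPM (−0.56) with ML60218, and NGRN, which acts in assembly of the large subunit, rose by 0.73 after the siRNA. Of 21 translation factors, 7 were lower (33.3%) and 8 higher (38.1%) after the siRNA, and 4 (19.0%) and 3 (14.3%) with ML60218. LRPPRC, which stabilises mitochondrial mRNAs, fell by 0.89 after the siRNA, and its partner SLIRP by 0.37 with ML60218.

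Of 19 enzymes that charge mitochondrial transfer RNAs and were tested, 8 were lower and 1 higher after the siRNA, with TARS2 at −1.24 and LARS2 at −1.10, and 6 were lower and 5 higher with ML60218. Of 15 regulators, 6 were higher (40%) and 5 lower (33.3%) after the siRNA, and 3 were higher (20%) and 4 lower (26.7%) with ML60218. GABPA, the DNA-binding subunit of GABP, rose after the siRNA from 73.8 ± 1.18 to 102 ± 1.38 CPM (0.46) and was at −0.03 with ML60218. PPARGC1A, a coactivator of mitochondrial biogenesis, fell by 0.72 after the siRNA and rose by 0.79 with ML60218. YY1 was at 0.29 (adjusted p 1.48e-07) and −0.15 (adjusted p 0.00639), and TFB2M at 0.41 and −0.43. ESRRA fell by 0.63 after the siRNA. With ML60218, MYC rose by 0.74 and MTERF1 fell by 0.66. Of the 13 mRNAs encoded in mitochondrial DNA, 0 passed in siPOLR3A, and 1 did with ML60218, MT-ND2 at −0.76 (adjusted p 0.0467). With ML60218, 12 of the 13 fold changes were below 0, with a median of −0.28. CPM were free of overlap for 3 of them. After the siRNA 10 were below 0, with a median of −0.04.

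Cytosolic ribosomal proteins give the closest set for comparison. With ML60218, 49 of 81 were lower and 0 higher, with a median of −0.14. The 49 became 18, 22 and 19 without DMSO replicate 1, 2 or 3, where the mitochondrial set had 40, 39 and 42 lower. The cytosolic medians moved little there, at −0.13, −0.15 and −0.13. Without ML60218 replicate 1, 2 or 3, 45, 53 and 43 cytosolic and 48, 47 and 45 mitochondrial genes were lower. DESeq2 called 56 cytosolic and 46 mitochondrial genes lower. After removal of the GC and length trend, these counts were 67 and 57. With total counts, 18 cytosolic ribosomal proteins were lower and 2 higher, with a median of −0.07. After the siRNA 16 were lower and 15 higher, with a median of 0.01, against 39 lower and 8 higher in the mitochondrial set. The even split of the cytosolic set was lost with total counts (12 lower and 37 higher, median 0.06) and without siControl replicate 3 (14 lower and 26 higher). These are counts of lists, and the difference between the lists was not tested.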

How the data were processed

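The authors deposited, for 12 libraries, estimated counts and TPM values for 194142 transcripts; per the file headers these are columns of the program salmon, whose version and settings are not given in the sources used here. The submitters' processing notes name bcl2fastq 2.20, Trim Galore, DESeq2 and the build hg38. The deposited estimated counts are fractional reads per transcript, and the deposited TPM are scaled for transcript length and to a fixed total. Column names gave the experiment, arm and replicate. Transcripts were assigned to genes by identifier without version in GENCODE release 29 (81.6% matched), and counts were summed per gene and rounded. Unmatched transcripts, 8.37% to 8.97% of reads, were left out.

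Each comparison was fitted on its 6 libraries, and the difference on all 12, with edgeR 4.0.16 in R 4.3.3: filterByExpr (minimum count 10, minimum total 15), TMM scaling, and a quasi-likelihood F test (two-sided) with robust dispersion estimates. P-values were adjusted over all genes by Benjamini-Hochberg and called under 0.05. The standard error (SE) is the fold change divided by the square root of F. The design had assumed a gene table; summing and rounding were the steps the transcript table needed. The procedure was tested on simulated data. Alternatives were scaling, filter, DESeq2 1.42.0, a replicate block, a length offset, neighbouring transcripts, left-out libraries, subunit by structure and, chosen after seeing the data, removal of the GC and length trend.

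The members, lists, 6-base sequences and the naming rule were chosen with earlier results of these data known. The rule named, per comparison, up to 6 rises and 6 falls, by size, of called members free of overlap, the 3 largest summed changes in each class called in both, the 4 smallest p of either sign for the difference, the 4 highest and 4 lowest by TPM, members with a special place, and up to 2 called genes per direction from each other list. Genes outside it are said to be chosen after their values were seen, apart from YY1, GABPA with ML60218 and the members listed by class or sequence. Promoters are from RefSeq on GRCh38.p14.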

Additional observations from a re-analysis of the deposited data

Results flagged for a closer look

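The effects of the siRNA and of ML60218 differed for 41 of 77 members. This was by a test of the difference itself, in edgeR's fit of all 12 libraries. Of all genes 50.9% were called, so the members differed about as often as genes in general. The named members with a positive difference were MRPL4 at 0.50, MRPS23 at 0.53, MRPL43 at 0.51 and MRPL34 at 0.49. Those with a negative difference were MRPL19 at −0.92, MRPS9 at −0.67, MRPS5 at −0.44 and MRPS14 at −0.30. The treatments differed in agent, duration and transfection at once, and the sample titles name the cells differently. What underlies the differences cannot be told apart.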

How the results depend on the processing

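Members called higher after the siRNA were 8, and 5 with DESeq2, 5 with the length offset and 4 after removal of the GC and length trend; without 1 replicate they ranged from 5 (without siControl replicate 1 or siPOLR3A replicate 3) to 10. For the large subunit these counts were 6, and 3, 3 and 2, with a range of 3 to 7 without 1 replicate. For the small subunit the count was 2, and 1 by structure. With ML60218 and total counts, 2 members were higher, 1 of each subunit, and 8 small subunit members were lower instead of 15; without 1 replicate, 39 to 48 members and 10 to 15 small subunit members were lower. Over all alternatives 33 to 57 members were lower with ML60218. With neighbouring transcripts, summed TPM in siPOLR3A were 4944. Of 692 alternatives for 46 named fold changes, 643 kept direction and side of the threshold, 35 lost the call, 1 gained it and 13 turned sign.

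The turned values were all uncalled. MRPL58 after the siRNA was −0.00038 without a filter, −0.0067 with the length offset, −0.0223 without siControl replicate 1 and −0.0145 without siPOLR3A replicate 3, with a range from −0.0223 to 0.0333 without 1 replicate. With ML60218 it was −0.0137 without ML60218 replicate 2, the lowest of a range that reached 0.0503. With ML60218, MRPS18B was 0.0635 with total counts, 0.00038 without DMSO replicate 1, 0.0078 without DMSO replicate 2 and 0.0384 without ML60218 replicate 1, with a range from −0.0613 to 0.0384. MRPS27 with ML60218 was 0.0464 with total counts, 0.0324 with the length offset, 0.0022 without DMSO replicate 1 and 0.014 without DMSO replicate 2, with a range from −0.0905 to 0.014. The cause was not tested.

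Replicate numbers did not pair the samples: deviations of same-numbered libraries correlated at −0.0241, 0.038 and −0.0741 in the siRNA experiment and at 0.0165, 0.0656 and −0.0544 in the other, and not every library correlated best with its own number. With the replicate block, 46 members were called after the siRNA (8 higher, 38 lower), 45 with ML60218 (0 higher, 45 lower) and 41 for the difference. Low counts limit MRPL45, at 1.3 TPM on average.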
